A study of Homo sapiens with 8 samples.

Results

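The early transcriptional response of KASUMI-1 cells to inhibition of the histone demethylase LSD1 was read from a pair of RNA-seq libraries, 2 of the 8 in the series. The pair was taken by its labels: KASUMI-1 cells given the LSD1 inhibitor DDP38003 (LSD1i) at 0.5 µM for 6 h, and KASUMI-1 cells given vehicle for the same 6 h. KASUMI-1 is an acute myeloid leukemia line that carries the RUNX1::RUNX1T1 fusion, and the study labels it sensitive to the inhibitor. The other pairs were used only to set the 6 h values beside them: KASUMI-1 with LSD1i and with vehicle at 72 h, and THP-1, a monocytic leukemia line labelled resistant, with LSD1i and with vehicle at 24 h and at 72 h. The study took 6 h in KASUMI-1 as the earliest time at which regulation of the kinase mTOR was seen after LSD1 inhibition. Cells were grown in flasks, and each group was 1 library of 1 line. There is therefore no replicate of either 6 h library, and no p-value is given for a gene.

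LSD1, the product of KDM1A, removes methyl groups from lysine 4 of histone H3 at enhancers and promoters. In blood cells it is brought to DNA with the corepressor CoREST (RCOR1) mainly by the repressors GFI1 and GFI1B, which hold down genes of monocytic differentiation. Inhibitors of LSD1 can block the enzyme and also loosen its contact with GFI1 proteins, and myeloid surface proteins such as CD86 are widely used as markers of that response.

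At 6 h, more genes were higher than lower with LSD1i. Of 12055 genes measured, meaning a mean of at least 1 CPM (reads scaled to library size) over the pair, 131 (1.09%) were at least 2-fold higher with LSD1i and 15 (0.124%) at least 2-fold lower, with an exact 95% counting interval of the ratio that excluded 1. The rises reached further: 21 genes were at least 4-fold higher, and 0 genes that passed the same rule were at least 4-fold lower. The median ratio of the 131 genes was 2.43-fold. The median log2 ratio over all measured genes was -0.03 (log2 values are taken with a prior count of 2), a value that the scaling sets near 0. Among the 6754 genes at 20 CPM or more, 97.1% lay within 1.5-fold and the SD of the log2 ratio was 0.28. With a 1.5-fold limit 572 genes (4.74%) were higher with LSD1i and 276 (2.29%) lower. Counting intervals cover the sampling of reads only, and in bulk RNA more cells of a kind and more RNA per cell cannot be told apart.

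**Figure D1:**
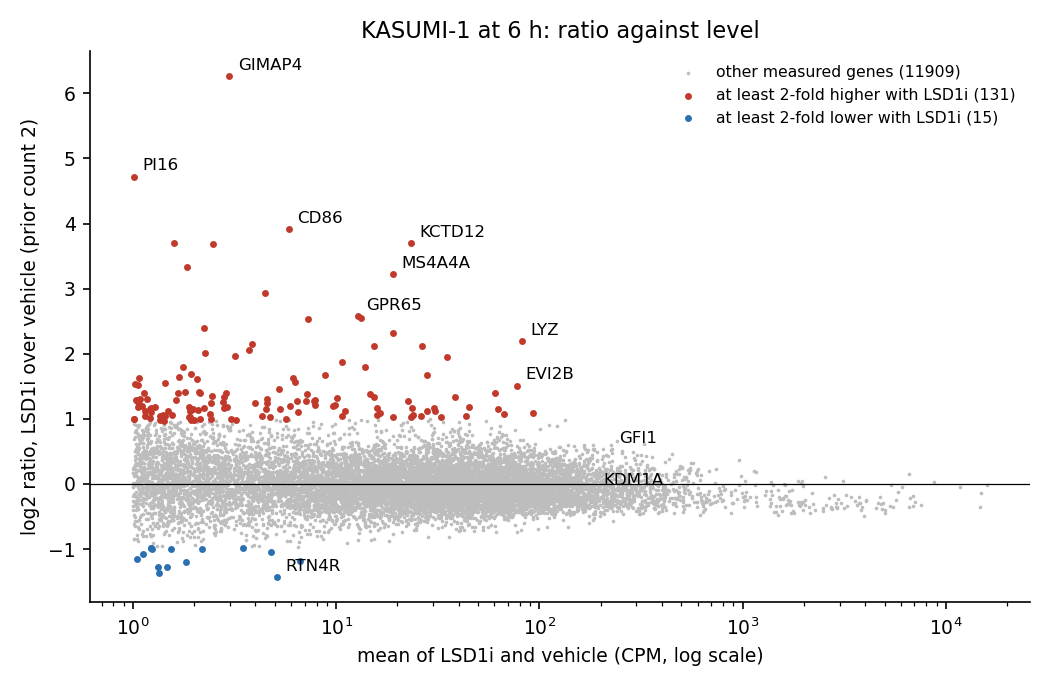
Each point is 1 of the measured genes: its mean level in the LSD1i and vehicle libraries at 6 h (CPM, log scale) against the log2 ratio of LSD1i over vehicle. The 131 genes at least 2-fold higher (red) spread up to GIMAP4 and PI16, while the 15 at least 2-fold lower (blue) sit near the 2-fold limit.

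The genes past 2-fold were mostly weakly expressed. Of 2412 genes with a mean of 1 to 5 CPM, 75 (3.11%) were 2-fold higher and 13 (0.539%) lower. Of 4946 genes between 20 and 100 CPM, 22 (0.445%) were 2-fold higher and 0 lower, and of 1808 genes at 100 CPM or more 0 were past 2-fold in either direction.

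The ratio also moved with the base composition of the transcripts and with their length. Across 10730 genes with a known transcript, the log2 ratio of LSD1i over vehicle and GC content had a Pearson r of -0.34, a description across genes of 1 pair of libraries. Spearman's rho was -0.39 with GC content and 0.40 with exon length (over 12055 genes for length), and only GC content was corrected for. With these genes ordered into 10 bins of 1073, the median log2 ratio was 0.19 in the bin with the lowest GC content and -0.20 in the bin with the highest. The lowest bin held 105 genes 1.5-fold higher and 1 lower, and the highest 22 higher and 86 lower. Median GC content was 43.0% for the 2-fold rises, 63.5% for the 2-fold falls and 47.8% for all genes measured. The trend was of like size in the 72 h pair of KASUMI-1 (r = -0.40), near 0 in THP-1 at 24 h (r = 0.09), and of the other sign between the vehicle libraries of KASUMI-1, 72 h over 6 h (r = 0.46). When ratios were centred on the running median of genes of like GC content, a correction chosen after seeing the data, 101 of the 113 rises with a known transcript stayed past 2-fold, but only 6 of 13 falls. At 1.5-fold, 382 of 466 rises and 79 of 237 falls stayed. The part of base composition and of length in the remaining differences was not tested.

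**Figure D2:**
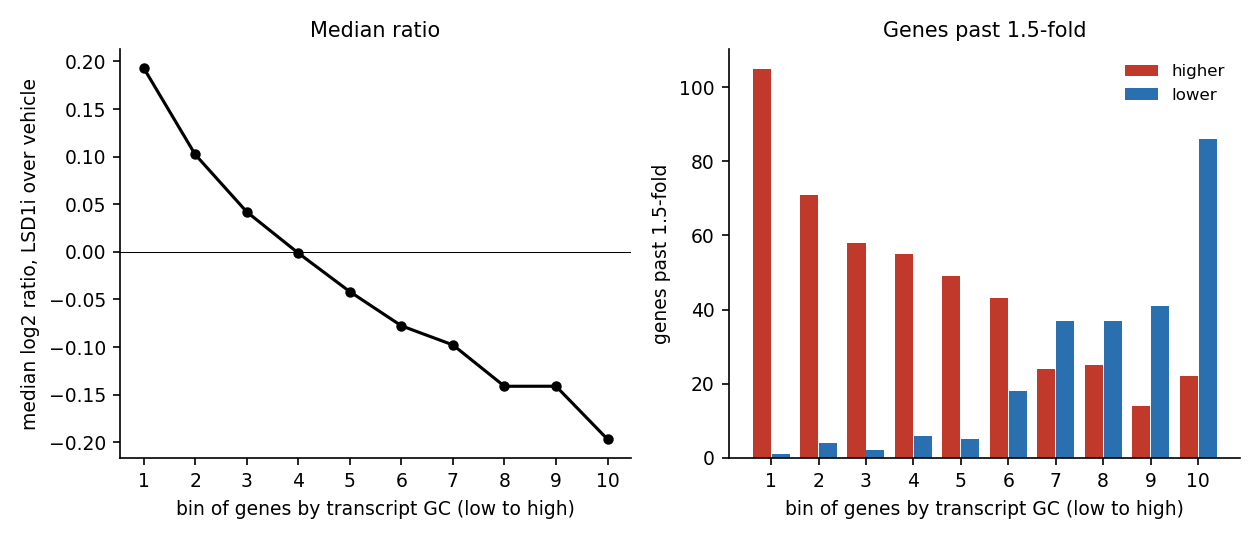
Left, median log2 ratio of LSD1i over vehicle at 6 h in 10 bins of 1073 genes ordered by transcript GC content, from 0.19 in the first to -0.20 in the last. Right, genes past 1.5-fold in each bin, higher (red) and lower (blue): the first holds 105 and 1, the last 22 and 86.

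The target of the drug and most of its measured partners were within 1.5-fold. KDM1A itself had 7140 reads with LSD1i and 7467 with vehicle, 0.923-fold (95% counting interval 0.893 to 0.953); the drug acts on the protein, so this transcript checks no label. RCOR1, the scaffold that joins LSD1 to chromatin, had 2164 reads with LSD1i and 1957 with vehicle (1.07-fold), and HMG20B, a further subunit of the complex, had 2127 and 2489 (0.824-fold). The recruiting repressors were higher with LSD1i. GFI1 had 10482 reads with LSD1i and 7010 with vehicle, 1.44-fold (1.40 to 1.49), and 1.61-fold after centring on GC content. GFI1B had 48 and 22 reads, 2.10-fold (1.25 to 3.66), below the level needed for a call. Of 22 measured members of the list of LSD1 and its corepressor partners, 0 were 2-fold apart and 1 was past 1.5-fold: TAL1, a transcription factor of blood stem cells, with 315 reads with LSD1i and 482 with vehicle (0.630-fold, but within 1.5-fold after centring on GC content). After centring, 1 member of the list was 1.5-fold higher and 0 lower.

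The rises with the highest lower bounds included genes with almost no transcript in vehicle and genes that were low but present there. GIMAP4, a GTPase of immune cells on chromosome 7 (149895391 to 149901973, NCBI36), had 235 reads with LSD1i and 1 read with vehicle, a ratio of 227 with a counting interval from 40.3 to 8993. PI16, a secreted peptidase inhibitor on chromosome 6 (37030187 to 37040589), had 79 reads with LSD1i and 1 with vehicle (76.2-fold, 13.3 to 3048). At 72 h GIMAP4 had 733 reads with LSD1i and 2 with vehicle, and PI16 had 227 with LSD1i and 0 with vehicle, so both were near silent in each vehicle library of the line. CD86, the T-cell costimulatory ligand on chromosome 3 (123256911 to 123322672), had 435 reads with LSD1i and 26 with vehicle, 16.1-fold (10.9 to 24.99). MS4A4A, a membrane protein of macrophages on chromosome 11 (59804650 to 59833017), had 1359 and 139 reads, 9.43-fold (7.92 to 11.3). KCTD12, an auxiliary subunit of the GABA-B receptor on chromosome 13 (76352313 to 76358541), had 1725 and 126 reads, 13.2-fold (11.02 to 15.96). The promoters of these 5 genes are printed because they have the highest lower bounds of the ratio among rises with a promoter in the table, from 250 bases before to 50 after the RefSeq start in build GRCh38.p14: chr7:150567140-150567439 (+ strand), chr6:36948046-36948345 (+ strand), chr13:76886356-76886655 (- strand), chr3:122055112-122055411 (+ strand) and chr11:60280416-60280715 (+ strand). Capitals mark, on either strand, the core letters bound by GFI1 (AATCAC), by PU.1 (GGAAGT) and by RUNX proteins (TGTGGT), and a match is a run of letters, not a shown binding site.
GIMAP4: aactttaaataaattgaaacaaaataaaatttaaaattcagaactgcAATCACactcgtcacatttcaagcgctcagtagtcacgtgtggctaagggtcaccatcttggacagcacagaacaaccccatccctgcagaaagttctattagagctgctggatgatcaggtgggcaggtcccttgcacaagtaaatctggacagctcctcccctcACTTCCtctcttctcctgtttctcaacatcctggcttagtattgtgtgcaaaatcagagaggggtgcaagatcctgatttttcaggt
PI16: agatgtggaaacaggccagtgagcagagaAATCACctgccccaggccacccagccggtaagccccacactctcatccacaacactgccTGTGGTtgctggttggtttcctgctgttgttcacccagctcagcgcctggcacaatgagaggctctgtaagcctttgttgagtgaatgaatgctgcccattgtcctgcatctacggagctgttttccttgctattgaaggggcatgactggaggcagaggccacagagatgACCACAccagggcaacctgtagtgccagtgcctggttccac
KCTD12: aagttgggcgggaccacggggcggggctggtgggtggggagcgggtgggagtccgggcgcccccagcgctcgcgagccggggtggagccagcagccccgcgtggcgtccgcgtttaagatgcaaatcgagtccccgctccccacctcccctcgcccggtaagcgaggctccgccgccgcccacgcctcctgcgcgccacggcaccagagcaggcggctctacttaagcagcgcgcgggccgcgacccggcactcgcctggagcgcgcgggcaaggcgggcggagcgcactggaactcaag
CD86: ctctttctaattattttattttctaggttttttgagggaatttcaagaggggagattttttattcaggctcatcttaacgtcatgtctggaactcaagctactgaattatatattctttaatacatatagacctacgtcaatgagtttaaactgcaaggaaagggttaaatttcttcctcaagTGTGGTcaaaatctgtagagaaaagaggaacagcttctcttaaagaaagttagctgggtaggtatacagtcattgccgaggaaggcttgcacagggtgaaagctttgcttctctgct
MS4A4A: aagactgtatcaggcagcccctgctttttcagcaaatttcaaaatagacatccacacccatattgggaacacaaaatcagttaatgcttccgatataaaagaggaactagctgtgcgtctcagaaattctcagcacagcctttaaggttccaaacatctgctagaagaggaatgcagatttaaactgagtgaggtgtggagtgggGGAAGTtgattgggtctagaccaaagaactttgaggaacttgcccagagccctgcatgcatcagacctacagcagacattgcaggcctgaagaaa
GIMAP4 held the GFI1 letters 203 bases before its start and the PU.1 letters, on the other strand, 37 bases before it. PI16 held the GFI1 letters 221 bases before its start and the RUNX letters 162 before and 10 after it. CD86 held the RUNX letters 67 bases before its start, and MS4A4A the PU.1 letters 45 bases before its start. KCTD12 held none of the 3 motifs, nor did the windows of GPR65, the next rise by lower bound with a promoter in the table, and of GFI1 itself. No matches in the printed windows overlapped.

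Over the promoters given in the RefSeq table, the GFI1 letters were more frequent among the rises. They stood in 15 of the 78 rises with a promoter (19.2%), against 665 of 8935 promoters of all measured genes (7.44%). The 15 included GIMAP4, GIMAP1, PI16, SIRPB2, MS4A7, CLEC12A, ID3, HGF and HDAC9. The PU.1 letters stood in 21 of the 78 (26.9%), against 2583 of 8935 (28.9%), and the RUNX letters in 9 (11.5%), against 850 (9.51%). The promoters of the rises also had less G and C: a median of 55.5%, against 65.3% over all measured genes. The part of that difference in the share of AATCAC, a motif with more A and T than G and C, was not tested. Among the 9 falls with a promoter, 0 held the GFI1 letters.

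In all, 35 names had at least 1 CPM with LSD1i and under 0.5 CPM with vehicle, beyond counting error, and 1 had the reverse, RAB3IL1, with 13 reads with LSD1i and 46 with vehicle. Of the 35, 23 were higher with LSD1i beyond counting error at 72 h too. In THP-1 at 24 h 13 were higher and 6 lower. These counts need only an interval that excludes 1, with no limit on fold or level. The share of all names that pass so loose a rule was not computed, so the counts have no background. LY96, the partner of TLR4 in sensing bacterial lipid, had 119 reads with LSD1i and 7 with vehicle, 16.4-fold (7.72 to 41.7). CAMSAP2, a microtubule minus-end binding protein, had 134 and 11 reads, 11.8-fold (6.36 to 24.1). IGSF3, an immunoglobulin-family membrane protein, had 184 and 12 reads, 14.8-fold (8.27 to 29.2). All 3 were called again at 72 h. Genes with at most 3 vehicle reads that stayed under the level needed for a call were FCRLA, an intracellular Fc receptor-like protein of B cells, with 42 and 3 reads (13.5-fold, 4.32 to 68.1), CALCRL, a peptide hormone receptor of stem and endothelial cells, with the same counts, SP140, a nuclear body protein of leukocytes, with 32 and 2 reads (15.4-fold, 3.94 to 133), and SLC16A14, an orphan transporter, with 29 and 3 reads (9.33-fold, 2.89 to 47.8). For FCRLA the 72 h libraries had 218 reads with LSD1i and 0 with vehicle, and THP-1 at 24 h had 431 and 1.

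**Figure D3:**
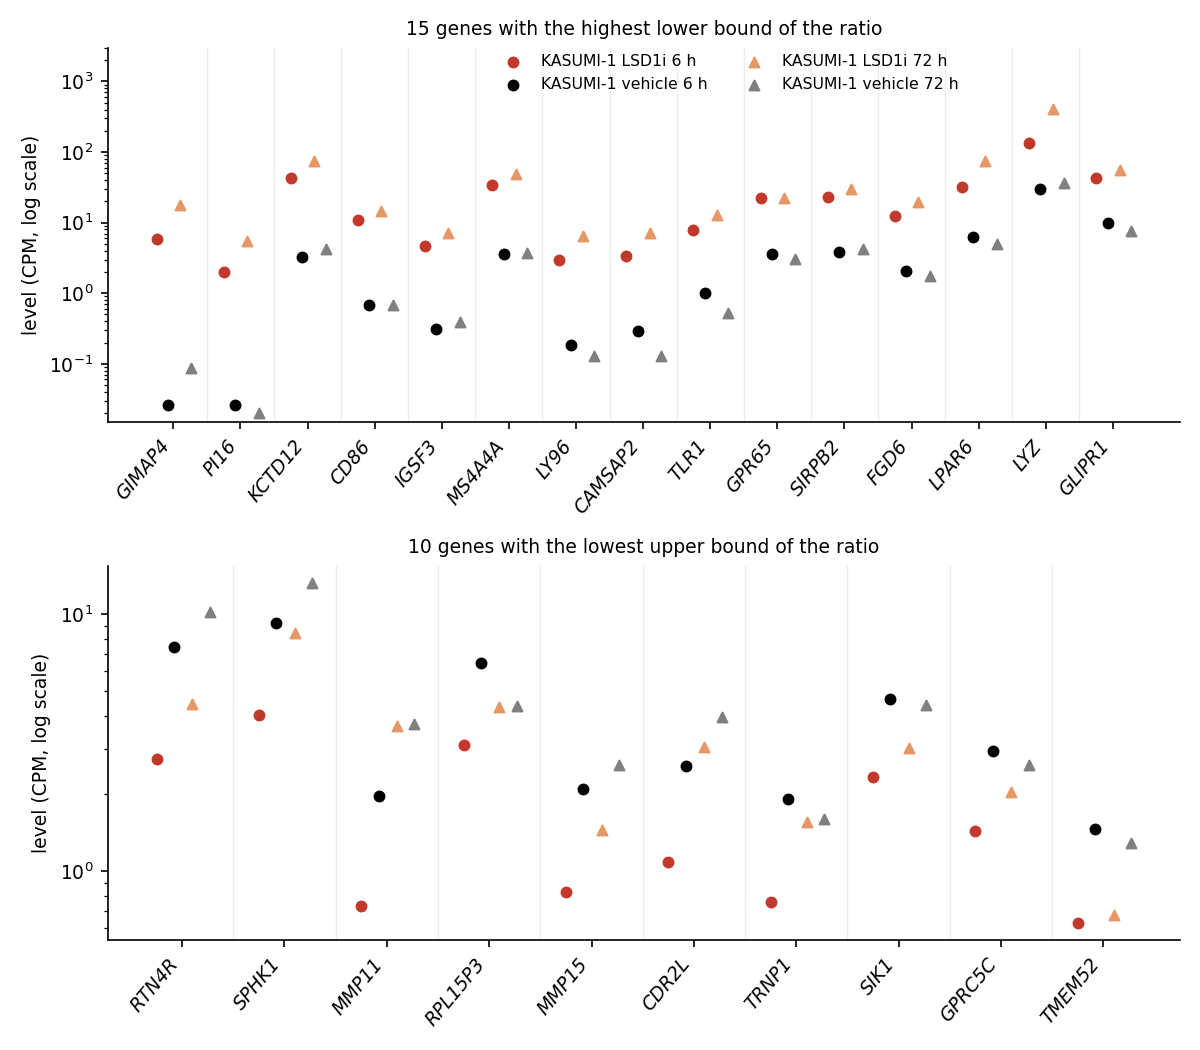
Level (CPM, log scale) of the 15 rises with the highest lower bound and the 10 falls with the lowest upper bound in 4 KASUMI-1 libraries: LSD1i (red) and vehicle (black) at 6 h, LSD1i (orange) and vehicle (grey) at 72 h. A library with no read is drawn at 0.02 CPM. In the upper panel both LSD1i libraries sit above both vehicle libraries for each gene. In the lower panel both LSD1i libraries sit below both vehicle libraries for each gene except MMP11 and CDR2L.

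Several genes of monocytes and macrophages were among the rises. Of 34 measured genes of the monocyte and macrophage list (60 members), 8 were 2-fold higher, beside 1.09% of all genes, and 0 were 2-fold lower. The list's median log2 ratio was 0.24, beside -0.03 for all genes, and 0.24 after centring on GC content. The list was drawn up with earlier results of these libraries known. The 8 were CD86, LY96, TLR1, LYZ, CCR2, TLR6, CLEC12A and FCGR2B. LYZ, the lysozyme of granulocytes and monocytes, was expressed in vehicle and had 5337 reads with LSD1i and 1128 with vehicle, 135 and 29.5 CPM, 4.56-fold (4.28 to 4.87). TLR1, a receptor for bacterial lipopeptides, had 314 and 38 reads, 7.97-fold (5.68 to 11.5). CCR2, the chemokine receptor that draws monocytes from marrow, had 124 and 38 reads, 3.15-fold (2.17 to 4.66). CLEC12A, an inhibitory lectin of myeloid cells, had 435 and 173 reads, 2.43-fold. FCGR2B, the inhibitory Fc receptor, had 71 and 29 reads, 2.36-fold, with reads that its near-identical relative FCGR2C can share. Between 1.5- and 2-fold stood CSF1R, the receptor that keeps macrophages alive (435 and 221 reads, 1.90-fold), the lectin CLEC7A (77 and 42 reads, 1.77-fold) and the inhibitory receptor LILRB1 (87 and 43 reads, 1.95-fold). SIRPA was 1.5-fold lower, with 277 reads with LSD1i and 437 with vehicle (0.612-fold), and not so after centring.

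The rises did not extend to markers of the mature monocyte. CD14, the lipopolysaccharide coreceptor, had 0 reads with LSD1i and 0 with vehicle. The highest of the 6 mature monocyte markers had 8 reads with LSD1i and 7 with vehicle, and their summed level was 0.28 CPM with LSD1i and 0.26 CPM with vehicle. Those of the erythroid list summed to 0.43 and 0.26 CPM, and of the megakaryocyte list to 1.39 and 1.10 CPM, with 0 members of either list measured. All 8 markers of the KASUMI-1 myeloblast were measured and 0 were past 1.5-fold, with sums of 10073 CPM with LSD1i and 9578 with vehicle. RUNX1T1, whose reads in this line come with the fusion, had 3361 reads with LSD1i and 2902 with vehicle, against 5 to 9 in the 4 THP-1 libraries. ITGAM, the integrin CD11b of maturing myeloid cells, was just past the limits, with 54 reads with LSD1i and 25 with vehicle, 2.08-fold (1.27 to 3.49). Neutrophil and eosinophil granule genes had 0 of 11 measured members past 1.5-fold and a median log2 ratio of -0.14.

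Several rises lay beside each other on a chromosome. Among 11872 neighbouring pairs of measured genes, 7 pairs (0.059%) were both 2-fold higher, made of 13 genes. In the MS4A cluster of chromosome 11, MS4A4A was followed by MS4A7 (1265 reads with LSD1i and 501 with vehicle, 2.44-fold) and MS4A14 (165 and 59 reads, 2.70-fold). MS4A7 and MS4A14 lie 0.062 kb apart on the same strand, so that transcription running on from one into the other cannot be told apart from transcription of its own. Of the 5 measured members of the MS4A and CD1 list, 3 were 2-fold higher, beside 1.09% of all genes, and MS4A6A was 1.97-fold higher (108 and 53 reads). On chromosome 4, TLR1 stood beside TLR6 (443 and 174 reads, 2.46-fold), its relative that pairs with TLR2 in the same way. On chromosome 18, SERPINB8 (2219 and 555 reads, 3.86-fold) stood beside SERPINB10 (62 and 25 reads, 2.39-fold), both inhibitors of serine proteases. On chromosome 13, LPAR6, a lysophosphatidic acid receptor (1262 and 242 reads, 5.03-fold), stood beside RCBTB2 (2322 and 1091 reads, 2.05-fold). LPAR6 (47883276 to 47916841) lies inside RB1 (47775884 to 47954027) on the opposite strand, and RB1 was 1.68-fold higher. On chromosome 17, EVI2B, a membrane protein of myeloid progenitors (4568 and 1547 reads, 2.85-fold), and OMG (61 and 19 reads, 3.10-fold), a glycoprotein of myelin, both lie inside NF1 on the opposite strand. NF1 was 1.19-fold higher, with 1831 reads with LSD1i and 1481 with vehicle. The counting used no strand, so reads of host and nested gene are not separated. The remaining pair, on chromosome 8, was TNFRSF10B, a death receptor for TRAIL (1741 and 820 reads, 2.05-fold), and its decoy relative TNFRSF10D (1245 and 585 reads, 2.05-fold). In the GIMAP cluster of chromosome 7, GIMAP4 and GIMAP1 (65 and 30 reads, 2.09-fold) were 2-fold higher among 5 measured members, beside 1.09% of all genes, with another measured gene between them.

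Further rises with the highest lower bounds were membrane and signalling genes. GPR65, a proton-sensing receptor of leukocytes, had 871 reads with LSD1i and 139 with vehicle, 6.05-fold. SIRPB2, a signal-regulatory protein, had 901 and 147 reads, 5.91-fold. FGD6, an exchange factor for CDC42, had 491 and 80 reads, 5.92-fold. GLIPR1, a secretory-pathway protein that p53 can induce, had 1701 and 378 reads, 4.34-fold. Their LSD1i values lay above both vehicle libraries of the line, as they did for 129 of the 131 rises, by 2-fold or more for 97. For the falls, the LSD1i value lay below both vehicle libraries for 13 of 15, by 2-fold or more for 8. The 6 h vehicle library and the same LSD1i value chose these genes, so only the 72 h vehicle library is new in these counts. The share of all measured genes was not computed, so the counts have no background.

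Transcription factors and reported GFI1 targets moved mostly by less than 2-fold. Of 23 measured myeloid transcription factors 5 were 1.5-fold higher, beside 4.74% of all genes, and 2 lower, beside 2.29%. Of these 1 was 2-fold higher, beside 1.09%: TFEC, a relative of MITF expressed in macrophages, with 3597 reads with LSD1i and 1652 with vehicle (2.10-fold, 1.98 to 2.23, and 1.82-fold after centring on GC content). IRF8, needed for monocytes, had 187 and 108 reads (1.67-fold), and KLF2 (1.66-fold), BCL6 (1.70-fold) and NFIL3 (1.57-fold) were also higher. VDR, the vitamin D receptor, had 305 and 452 reads (0.651-fold, within 1.5-fold after centring). BATF, an AP-1 family factor, had 231 and 389 reads (0.573-fold). SPI1, which encodes PU.1, had 2480 and 2760 reads (0.867-fold), CEBPA 363 and 398 (0.880-fold) and CEBPE, a factor of granule formation, 1207 and 1732 (0.672-fold). Of 17 measured genes listed as repressed by GFI1 or GFI1B in published work, 4 were 1.5-fold higher and 0 lower, beside 4.74% and 2.29% of all genes: ID3, an inhibitor of DNA binding, which was 2-fold higher (413 and 152 reads, 2.62-fold), CSF1R, IRF8 and KLF2. The median log2 ratio of that list was 0.04. Of 14 measured genes tied to the core-binding factor and its fusions 0 were 2-fold apart. RUNX1 had 8114 reads with LSD1i and 5967 with vehicle (1.31-fold), without separation of the fusion transcript. Of the 14, 2 were 1.5-fold higher, beside 4.74% of all genes, and 2 lower, beside 2.29%. RASSF2 (1.71-fold) and RUNX2 (1.51-fold) were the 2 higher, and CBFA2T3, a relative of RUNX1T1, was among the lower (0.534-fold). After centring on GC content, 2 members of the list were 1.5-fold higher and 1 lower. The early progenitor genes KIT (18357 and 19273 reads, 0.919-fold) and IGLL1 (1275 and 2014 reads, 0.611-fold, within 1.5-fold after centring) did not reach 2-fold. Of 22 measured members of the stem and progenitor list, 1 was 2-fold higher, beside 1.09% of all genes, and 0 lower. At 1.5-fold 3 were higher, beside 4.74%, and 1 lower, beside 2.29%.

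Genes around mTOR, which set the sampling time, were all within 2-fold in the lists of its components and of its upstream inputs. Of 38 measured mTOR components and regulators 0 were 2-fold apart and 1 was past 1.5-fold, the stress-induced AKT inhibitor TRIB3, with 533 reads with LSD1i and 783 with vehicle (0.657-fold, within 1.5-fold after centring). Their median log2 ratio was -0.06. DDIT4, which restrains mTORC1, had 1617 and 1170 reads, 1.33-fold (1.24 to 1.44), and SESN2, a leucine sensor upstream of mTORC1, had 358 and 361 (0.957-fold). IRS1, the insulin receptor substrate, was hardly detected, with 3 and 4 reads, and IRS2 had 113 and 119 (0.916-fold, 0.702 to 1.20). Of 27 measured insulin, PI3K and AKT inputs 0 were 2-fold apart, 3 were 1.5-fold higher, beside 4.74% of all genes, and 0 lower. PIK3IP1, an inhibitor of PI3K (1.67-fold), GAB2, an adaptor (1.61-fold), and the kinase SGK1 (1.86-fold) were the 3. Of 32 measured ATF4 targets and amino acid carriers, 1 was 1.5-fold higher, beside 4.74% of all genes, and 3 lower, beside 2.29%. After centring, 1 was higher and 2 lower. The list's median log2 ratio was -0.16. The rise was SLC7A7, a carrier of cationic amino acids, with 201 and 48 reads, 4.04-fold (2.94 to 5.66). CHAC1, which degrades glutathione, was among the lower, with 54 and 102 reads (0.511-fold).

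Proliferation genes were near the median of all genes. The S phase list and the G2 and mitosis list, with 39 measured members each, had 0 genes past 1.5-fold and median log2 ratios of -0.13 and 0.00. MYC had 10351 reads with LSD1i and 13757 with vehicle, 0.726-fold (0.708 to 0.745). The median over 47 measured ribosome biogenesis genes and MYC targets was -0.20, and -0.16 after centring. Of 20 measured G1 regulators, 1 was 1.5-fold higher (RB1), beside 4.74% of all genes, and 3 lower (CCND1, CCND3 and CDKN1C), beside 2.29%. After centring, 0 of these 4 stayed past 1.5-fold. Cholesterol and fatty acid synthesis had 0 of 36 members past 1.5-fold. In the interferon list 1 of 36 was 2-fold higher, beside 1.09% of all genes: the guanylate-binding protein GBP2 (327 and 137 reads, 2.30-fold). Of the ERK feedback and immediate-early list, FOSL2 (1.78-fold) and SPRED1 (1.68-fold) were higher, and DUSP2 (0.533-fold), DUSP5 (0.610-fold) and ATF3 (0.666-fold) lower, the last pair within 1.5-fold after centring. The lowest median was that of the 5 measured metallothioneins, -0.62 and -0.52 after centring. MT2A, the main metal-binding form, had 1380 and 2067 reads (0.644-fold, within 1.5-fold after centring). Of the 5 metallothioneins, 3 were 1.5-fold lower, beside 2.29% of all genes, and after centring 1, beside 0.895%. These near-identical genes can lose reads that map to more than 1 copy.

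**Figure D4:**
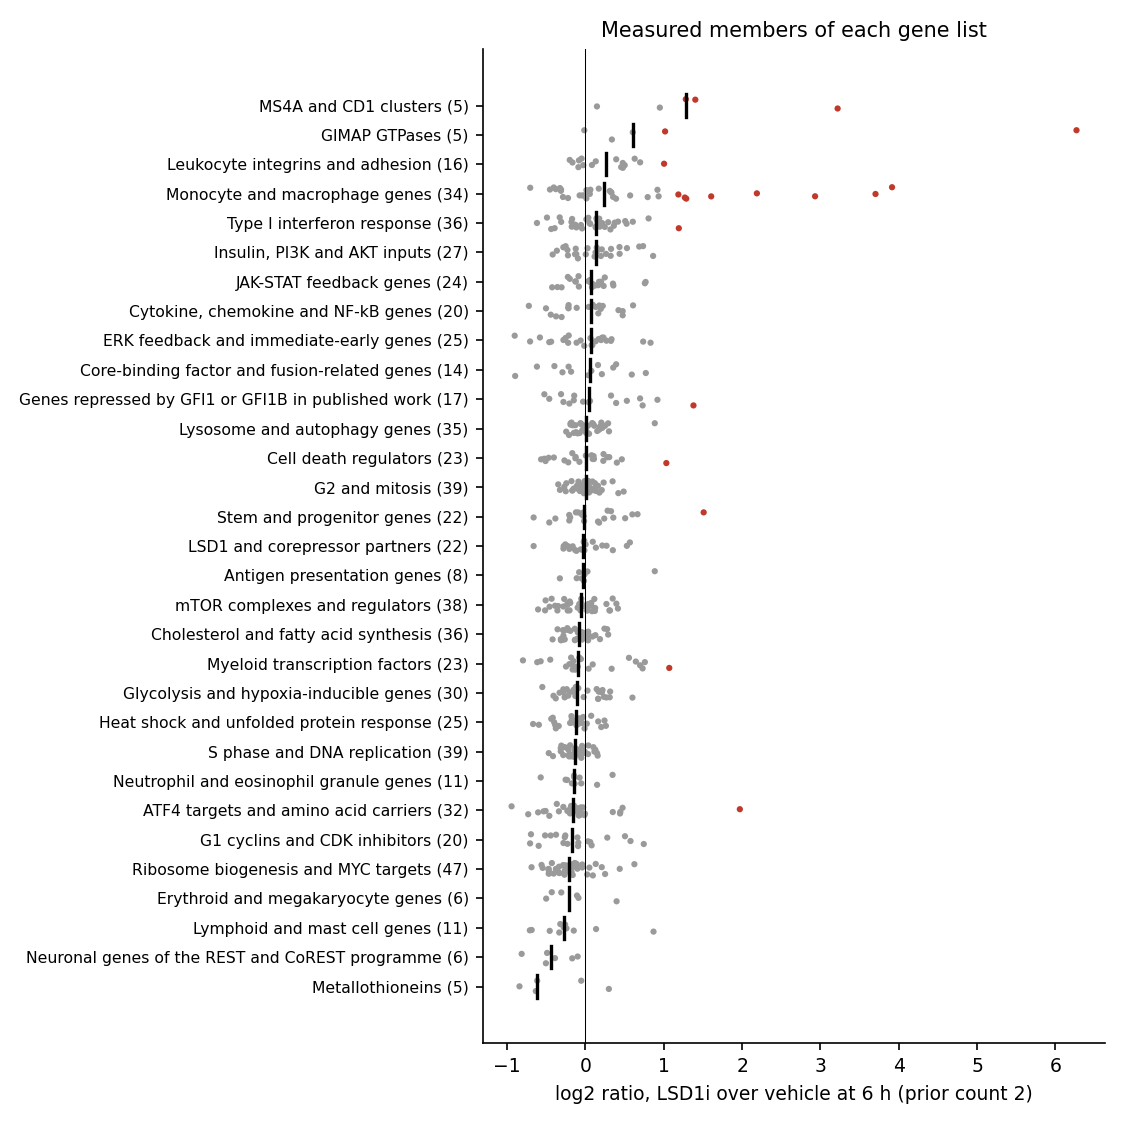
Log2 ratio of LSD1i over vehicle at 6 h for each measured member of 31 gene lists (points; red at 1 or above) with the list's median (black bar) and the number of measured members in brackets. Medians run from -0.62 for the metallothioneins to 1.28 for the MS4A and CD1 clusters, and the monocyte list reaches highest after GIMAP4.

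The falls were small. RTN4R, a receptor for myelin inhibitors of axon growth, had 108 reads with LSD1i and 285 with vehicle, 0.366-fold (0.290 to 0.458), and 0.425-fold after centring on GC content. SPHK1, which makes sphingosine 1-phosphate, had 160 and 354 reads, 0.436-fold (0.359 to 0.527), and 0.506-fold after centring. The metalloproteinases MMP11 (29 and 75 reads, 0.373-fold) and MMP15 (33 and 80 reads, 0.398-fold), and the stress-responsive kinase SIK1 (92 and 178 reads, 0.499-fold) were also among the falls. CDR2L had 43 and 98 reads (0.423-fold), TRNP1, a nuclear protein of neural progenitors, 30 and 73 (0.396-fold), TMEM52 25 and 56 (0.431-fold) and GPRC5C 57 and 112 (0.491-fold). RPL15P3 is a pseudogene of a ribosomal protein gene, whose reads are uncertain (123 and 246, 0.482-fold). At the limit, the nearest rises inside 2-fold with a current symbol were BTN3A3, HDAC9 and BLACE (170 and 82, 299 and 144, 75 and 36 reads), and the nearest outside it ERO1B, PRDM1 and LPAR1 (1531 and 740, 64 and 31, 694 and 337 reads), all just under 2-fold. The nearest falls inside it were SIK1, GPRC5C and KIFC3, and the nearest outside SLAMF8, NKD2 and SDC1, from 0.503-fold to 0.509-fold.

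The 72 h pair shares no library with the 6 h pair, and by the 2-fold rule it held most of the rises and 1 of the falls. Of the 131 rises, 105 (80.2%) were 2-fold higher at 72 h by the same rule, where 560 of 12130 measured genes (4.62%) were, so the 105 made up 18.8% of the 72 h rises. The share had an exact binomial interval from 72.3% to 86.6%, over genes, which are not independent. Of the 131, 120 were measured at 72 h, and the others could not be called there. The 131 genes had a median log2 ratio of 1.25 at 6 h and 1.75 at 72 h, and for 99 of them the 72 h ratio was the larger. LYZ reached 17054 reads with LSD1i at 72 h, against 856 with vehicle (11.2-fold), and LPAR6 3091 against 114 (15.2-fold). Among the rises, 4 had a lower level with LSD1i than with vehicle at 72 h: KIR3DX1 (0.572-fold), ADAMTS15 (0.760-fold), GLI3 (0.793-fold) and a gene listed as TMEM137 (0.910-fold). Of the 15 falls, 1 (6.67%) was 2-fold lower at 72 h, RTN4R, beside 1.15% of all genes. By sign alone, 13 of the 15 had a log2 ratio below 0 at 72 h and 2 above it. Of the 15, 12 were measured at 72 h. The median log2 ratio of the 15 was -1.07 at 6 h and -0.34 at 72 h. The GC trend ran the same way in both pairs. With both pairs centred on it, 81.0% of 116 rises were seen again, and 0 of 7 falls were seen again.

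**Figure D5:**
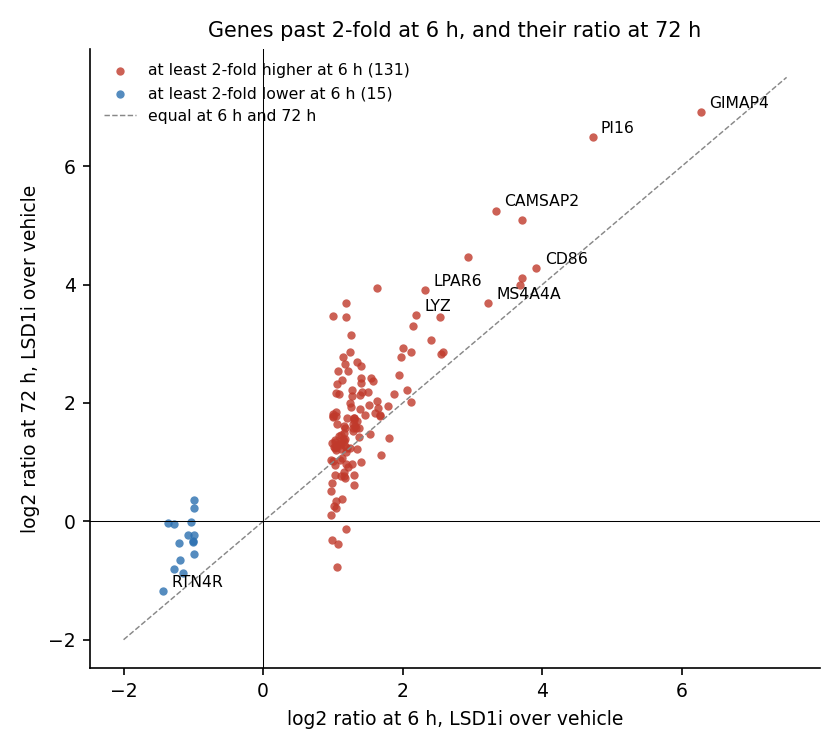
Log2 ratio of LSD1i over vehicle at 6 h (horizontal) and at 72 h (vertical) for the 131 genes at least 2-fold higher (red) and the 15 at least 2-fold lower (blue) at 6 h. Of the 131, 127 lie above 0 at 72 h and 99 above the dashed line of equal ratios; the 15 lie closer to 0 at 72 h than at 6 h.

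Part of the rises was also present in the resistant line. In THP-1 at 24 h, 46 of the 131 (35.1%) were 2-fold higher, where 390 of 12306 measured genes (3.17%) were, and the 46 made up 11.8% of the THP-1 rises. Of the 131, 98 were measured in THP-1 at 24 h, and the others could not be called there. The times differ between the lines and the difference was not tested. GIMAP4 (664 reads with LSD1i and 7 with vehicle), CD86 (1000 and 34), LY96 (785 and 20) and LYZ (216663 and 42132) were among the shared genes. PI16 had 2 reads with LSD1i and 4 with vehicle in THP-1, and CAMSAP2 had 1170 and 1455 reads there.

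A fit that took its spread from the THP-1 pairs was used as a further count. That spread is the difference between the THP-1 LSD1i ratios at 24 h and at 72 h. It therefore holds any change with time, and is not a spread between replicates. With edgeR's quasi-likelihood test on the KASUMI-1 6 h pair and both THP-1 pairs (1 residual degree of freedom), which assumes that the lone KASUMI-1 pair varies like those of THP-1, 306 of 16465 genes were called at an adjusted p of 0.05, 245 higher and 61 lower with LSD1i. It called 98 of the 131 rises (74.8%), which made up 40.0% of its own, and 5 of the 15 falls (33.3%), which made up 8.20% of its own. DESeq2 on the same libraries called 46 genes higher and 0 lower, with 374 higher and 363 lower at an unadjusted p under 0.05.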

How the data were processed

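RNA was extracted with Trizol and libraries were made with a TruSeq kit from 500 ng of total RNA, per the labels' protocols. All 8 libraries stand in 1 deposited table of raw counts per gene. Per the file headers, the authors used featureCounts 1.5.2 with Ensembl release 54 gene models (NCBI build 36) with no strand option and no option for reads with several alignments, so such reads were left out, close paralogs may be undercounted, and overlapping genes are not separated. The submitters' processing notes also name FastQC 0.10.0, TopHat2 2.0.10, Subread, edgeR and hg18. Total counts ran from 23722972 to 45970766 per library, with 39385565 for KASUMI-1 LSD1i and 41200025 for vehicle at 6 h. At that depth 3 reads, the floor for a count of 0, equal 0.0757 and 0.0785 CPM.

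Libraries were grouped by the cell line, agent and time of the labels. Of 33045 names, those on several chromosomes or on another chromosome than the gene now so called were not given a current symbol. CPM used TMM factors over all 8 libraries (edgeR 4.0.16, R 4.3.3). A gene was called when the ratio of scaled reads was at least 2 (or 1.5), its exact conditional binomial 95% interval excluded 1 and the mean was at least 1 CPM. Intervals cover counting error only. The log2 ratio used a prior count of 2. The counting rule and the edgeR fit were tested on simulated data. GC content is that of the longest GENCODE transcript. Promoters are from RefSeq, matched by symbol.

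The members, the 31 gene lists and the tests were chosen with earlier results of these data known. Genes named are a fixed set around LSD1, GFI1, monocyte, mTOR and progenitor genes, the 15 rises and 10 falls whose interval lies farthest from 1, up to 6 genes with at most 3 vehicle reads, up to 4 called members per list and direction, called neighbours, and those nearest the limit. List members between 1.5- and 2-fold, RAB3IL1, genes opposite at 72 h or in THP-1, and some called list members and holders of a motif were named after their values were seen. Alternatives were other scalings, filters, intervals, prior counts, both KASUMI-1 vehicle libraries as reference, DESeq2 1.42.0, and centring on GC content.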

Additional observations from a re-analysis of the deposited data

Results flagged for a closer look

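Of the genes named, 3 called at 6 h in KASUMI-1 had the opposite direction, beyond counting error, in both THP-1 pairs. Over all 146 genes called at 6 h, 8 did. In THP-1 this needs only intervals that exclude 1, with no limit on fold or level. The share of all measured genes that pass so loose a rule was not computed, so the count has no background. The difference between the lines was not tested, and the times differ. CAMSAP2 was 11.8-fold higher with LSD1i in KASUMI-1 at 6 h, against 0.856-fold in THP-1 at 24 h and 0.844-fold at 72 h. SERPINB10 was 2.39-fold higher in KASUMI-1, against 0.544-fold and 0.680-fold in THP-1, where it had 2077 reads with LSD1i and 4062 with vehicle at 24 h. CDR2L was 0.423-fold in KASUMI-1, against 1.49-fold and 1.38-fold in THP-1. The other 5, looked up after their values were seen, were rises: PPP1R16B (2.43-fold in KASUMI-1, against 0.609-fold and 0.457-fold in THP-1), ZMAT1 (2.26, 0.639 and 0.749), AFF2 (2.17, 0.655 and 0.407), ALG10B (2.19, 0.624 and 0.780) and 1 name with no current symbol (2.08, 0.399 and 0.515).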

How the results depend on the processing

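The excess of rises over falls held under each scaling, filter, interval and the GC centring. Scaling by total counts, which shifted the median log2 ratio by 0.12, gave 198 genes 2-fold higher and 7 lower, 942 and 115 past 1.5-fold, 66.2% of rises seen again at 72 h and 26.8% in THP-1. TMM over the pair alone, RLE and a 99% interval left these counts within 1.5 times. Filters gave 213 higher and 38 lower at a mean of 0.5 CPM, 5 lower at 2 CPM, 56 and 2 at 5 CPM (277 and 130 past 1.5-fold), and 395 and 88 with no filter (883 higher past 1.5-fold). The share of rises seen again at 72 h was 65.3% at 0.5 CPM, 89.3% at 5 CPM and 47.1% with no filter, and of falls 50% at 5 CPM. Against both vehicle libraries summed, 33 genes were 2-fold lower and 439 1.5-fold lower. Centred on GC content, which was chosen after seeing the data, 7 genes were 2-fold lower and 96 were 1.5-fold lower, and 0% of the falls were seen again. DESeq2 called 46 genes, all higher with LSD1i, where edgeR called 306, 61 of them lower. No named gene past 1.5-fold changed its direction under the scalings, prior counts, pooled vehicle or GC centring. Apart from fewer reads under a stricter filter, the cause was not tested. No paired analysis was possible because each group held 1 library.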
